A study of Homo sapiens with 6 samples.

Results

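The 10 genes described here are Notch receptors (NOTCH1, NOTCH2, NOTCH3), Notch ligands (DLL1, DLL3, JAG1, JAG2) and HES and HEY genes, the usual targets of the pathway (HES1, HES4, HEY1). They were taken by gene symbol, and all 10 were found among the 58217 genes used. The cells were cultures differentiated towards pancreatic progenitors from the wild-type human induced pluripotent stem cell line Ff-I01s01. From day 6 to day 8, in step S3, they were kept without K-3 (Control, 3 libraries) or with K-3 at 2 µM (3 libraries), and the stated question was what K-3 does to their differentiation. K-3 is a code name, nothing else is said of it in the labels, and all libraries come from 1 line.

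Notch signalling passes between touching cells. A ligand of the Delta or Jagged type on one cell binds a Notch receptor on its neighbour, the receptor is cut by ADAM proteases and then by gamma-secretase, and its freed intracellular part joins the DNA-binding protein RBPJ to switch on HES and HEY genes. These encode transcriptional repressors of the basic helix-loop-helix class. In the embryonic pancreas of the mouse, Notch signalling and Hes1 are known for holding progenitors back from endocrine differentiation, which the factor NEUROG3 starts.

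HES1 and HES4 are shown first by their promoters, because RBPJ binds a short motif, TGGGAA, and both stretches hold it. The sequences are from RefSeq on build GRCh38.p14, read 5′ to 3′ on the gene's strand from position -250 to position -61, where -1 is the base before the annotated transcript start, and capitals mark TGGGAA.
HES1 (chr3:194135898-194136087, + strand): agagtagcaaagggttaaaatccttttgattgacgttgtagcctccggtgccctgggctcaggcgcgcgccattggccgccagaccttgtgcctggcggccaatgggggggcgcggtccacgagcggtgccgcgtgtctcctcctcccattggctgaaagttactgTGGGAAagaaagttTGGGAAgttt
HES4 (chr1:1000158-1000347, - strand): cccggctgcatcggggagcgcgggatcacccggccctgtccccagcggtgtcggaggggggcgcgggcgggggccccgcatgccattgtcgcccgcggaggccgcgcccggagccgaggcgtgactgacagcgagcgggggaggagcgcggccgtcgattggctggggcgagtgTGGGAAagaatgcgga

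HES1 held 2 matches, starting at -84 and -70 and so 14 bases apart, and HES4 held 1, at -76. The match at -84 in HES1 and the one in HES4 were both preceded by G, which makes the longer form GTGGGAA. Searched on both strands over the 250 bases upstream of the start, TGGGAA was present at least once in 20.8% of 35116 promoters and at least 2 times in 2.9%, and GTGGGAA at least once in 5.43%. Promoters were at hand for 7 of the 10 genes, and TGGGAA was not found in these windows for NOTCH1, NOTCH2, NOTCH3, JAG1 and JAG2. The N-box CACNAG, a motif that HES proteins bind, had 3 matches upstream of HES1 (starting at -165, -132 and -58), 1 upstream of NOTCH3 (at -211) and none upstream of the other 5; at least 1 match was present in 32.0% of all promoters. A match of letters is a description and no evidence of binding in these cells.

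Levels are the authors' deposited FPKM, fragments scaled by gene length and by library size. Orders, shares and ratios between genes rest on the deposited length, which need not be that of the transcripts in these cells. NOTCH2, for example, had more fragments than NOTCH3 (114020 against 102003 in all libraries) but a longer length (16807 against 9394 bases). The Control libraries held 35334645 to 38773637 fragments and the K-3 libraries 41839266 to 50199369, so the K-3 group was the deeper one throughout. The labels do not give separate differentiations for the libraries of a group, and the spread that p-values are set against may thus be technical. Of 13 pancreatic progenitor markers, 11 had a mean of at least 1 FPKM, while NKX6-1 had 0 fragments in all 6 libraries and PTF1A had 6 in all. The 6 endothelial markers, defining a cell type rich in NOTCH4 and DLL4, summed to 0.0662 to 0.188 FPKM, and all were below 1 FPKM. Summed pancreatic progenitor markers were 552 to 587 FPKM in Control and 616 to 637 with K-3, hepatic markers 2560 to 2830 and 2400 to 2550, intestinal markers 33.6 to 38.9 and 39.5 to 41.5, and neural markers (1 of 8, OTX2, above 1 FPKM, and SOX1 at 0) 15.4 to 17.3 and 13.4 to 14.7. In each of these sums the groups did not overlap, but in the hepatic, intestinal and neural sums single genes set this. Of the 11 tested pancreatic progenitor markers, 5 had separate groups with K-3 higher and 1 with K-3 lower. Among all tested genes, 15.4% were separate with K-3 higher and 12.0% with K-3 lower. In the limma test described below, 0 of these 11 were called higher and 0 lower (smallest adjusted p = 0.0634). Of the intestinal markers CDX2 had separate groups (7.68 ± 2.9 and 13.4 ± 0.84 FPKM), while VIL1, the most abundant, overlapped (29.1 ± 1.7 and 26.8 ± 1.8) and shares 44.0% of its exon bases with USP37 on the other strand. Of the 5 hepatic markers TTR had separate groups, and AFP, APOA1, ALB and SERPINA1 overlapped. Proneural and endocrine factors (2 of 15 above 1 FPKM, with NEUROD1 and NEUROG2 at 0) were also separate, at 3.82 to 4.12 FPKM and 5.3 to 6.81. Mesenchyme markers summed to 23.8 to 26.1 FPKM and 25.0 to 28.0, and pluripotency markers to 361 to 396 and 361 to 366, with overlapping groups. Nearly all of the pluripotency sum was LIN28A (357 FPKM in Control, 348 with K-3). POU5F1 averaged 0.233 and 0.214 FPKM, and NANOG had 3 fragments in all 6 libraries together. What part shifts in the marker sums had in the values below was not tested. In bulk RNA, fewer cells of a type and less RNA per cell cannot be told apart.

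By mRNA level, NOTCH3 and NOTCH2 were the most abundant of the 3 receptors, DLL1 of the 4 ligands, and HES4 and HES1 of the 3 targets. In Control the order from high to low was HES4 (47.7 FPKM), NOTCH3 (45.6), NOTCH2 (26.9), HES1 (25.9), DLL1 (22.2), NOTCH1 (5.16), JAG2 (2.73), JAG1 (0.462), DLL3 (0.258) and HEY1 (0.125). Neighbours whose 3 Control values overlapped were HES4 and NOTCH3, NOTCH2 and HES1, JAG1 and DLL3, and DLL3 and HEY1; the others were separate. With K-3 the order was the same except that NOTCH3 stood above HES4 and HES1 above NOTCH2, and these were the pairs of neighbours that overlapped there.

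**Figure D1:**
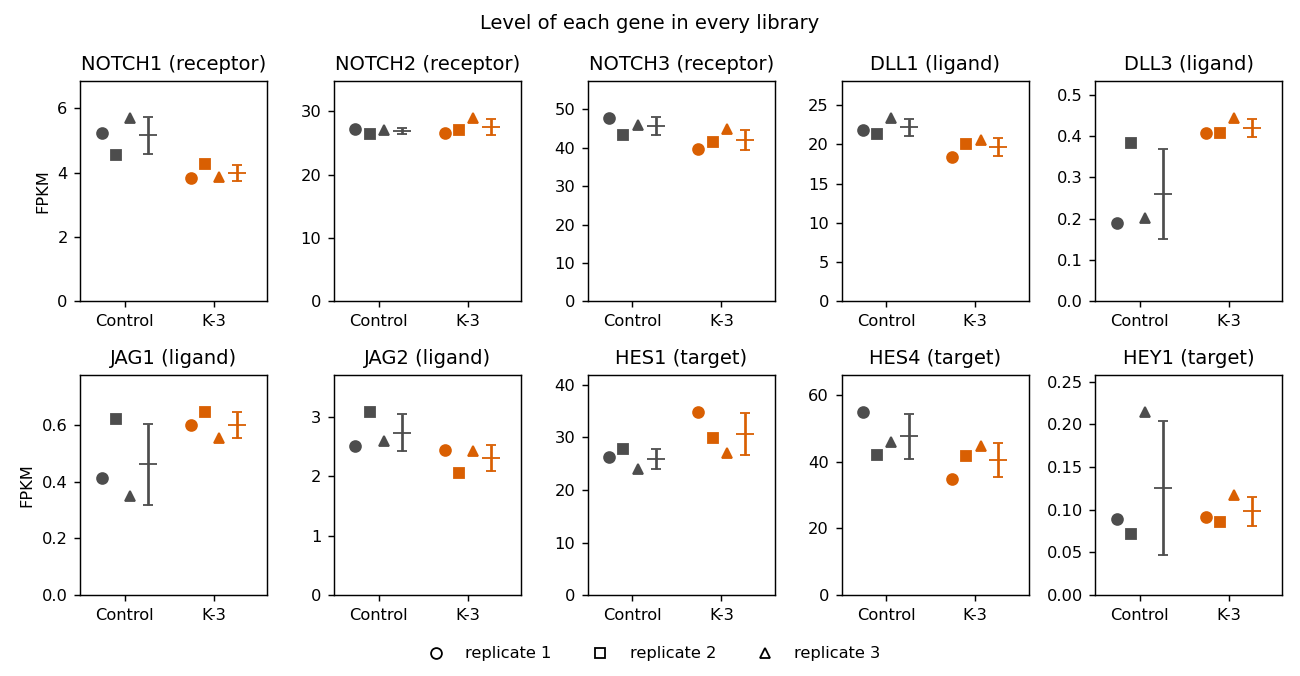
FPKM of each of the 10 genes (vertical axes from 0, each gene on its own scale) in the 3 Control and 3 K-3 libraries; points are libraries, with a marker shape for each replicate number, and the bar beside them gives mean and SD. The groups are separate for NOTCH1, DLL1, JAG2 and DLL3 and overlap for the other 6 genes, and Control replicate 2 lies at 0.384 FPKM of DLL3, close to the K-3 libraries.

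None of the 10 genes passed the test between K-3 and Control. Testing took in genes averaging 1 FPKM or more over the 6 libraries, with limma on log2(FPKM + 1), two-sided, and genes were called at a Benjamini-Hochberg adjusted p under 0.05 over all 12968 tested genes. Of the 10 genes 7 were tested, and 0 rose and 0 fell, where 2.08% of all tested genes were called, 1.17% higher (152 genes) and 0.91% lower (118 genes). Before adjustment, 3 had a p under 0.05: HES1 higher, where 11.7% of all tested genes were, and NOTCH1 and DLL1 lower, where 10.4% were (22.1% in either direction). The groups did not overlap in 3 of the 7, all lower with K-3, where 12.0% of tested genes had separate groups in that direction and 27.4% in either. The 7 log2 fold changes ran from -0.30 to 0.23 with a median of -0.16, and the median over all tested genes was 0.013. These values, and those below unless another setting is named, are on the log2(FPKM + 1) scale. That scale understates changes of genes at a few FPKM. Voom, limma's method for counts, run on the recovered fragments, called 1 of the 7, NOTCH1, as lower, where 3.07% of all genes were called lower.

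**Figure D2:**
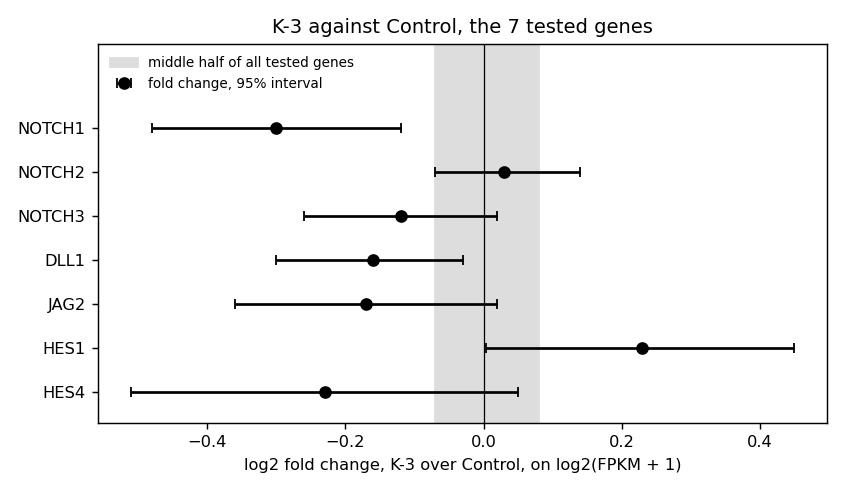
Log2 fold change of K-3 over Control on the log2(FPKM + 1) scale for the 7 tested genes (points) with 95% intervals from limma; the grey band runs between the quartiles of all tested genes, -0.07 and 0.08. The intervals of NOTCH1 and DLL1 lie below 0 and that of HES1 just above it, before any adjustment for the number of genes tested.

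Among the receptors, NOTCH1 had the largest fold change, while in FPKM the means of NOTCH3 lay furthest apart. NOTCH1 (ENSG00000148400, chromosome 9 from 136494433 to 136545786, - strand) had 5.23, 4.54 and 5.71 FPKM in Control replicates 1 to 3 and 3.84, 4.28 and 3.88 with K-3. All 3 K-3 libraries were lower than the lowest Control library, although Control replicate 2 came close to K-3 replicate 2. The means were 5.16 ± 0.59 and 4.0 ± 0.24 (SD, n = 3 each), a K-3 to Control ratio of 0.776, from 1698 to 2130 fragments per library. The log2 fold change was -0.30 (SE 0.08, 95% interval -0.48 to -0.12, limma adjusted p = 0.0909), so NOTCH1 did not pass. It passed in 4 alternatives: voom (-0.36, adjusted p = 0.0286), protein-coding genes only (-0.30, 0.0439), array quality weights (-0.27, 0.0428) and without Control replicate 2 (-0.37, 0.0324). In those fits 3.07%, 2.55%, 7.43% and 1.77% of all genes were called lower. Over all 16 alternatives its value was negative, with adjusted p-values from 0.0286 to 0.265. At equal depth, after thinning each library to the smallest total, the value was -0.31 (adjusted p = 0.0801).

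NOTCH2 and NOTCH3, the abundant receptors, had smaller fold changes. NOTCH2 (ENSG00000134250, chromosome 1 from 119911553 to 120069626, - strand) had 27.2, 26.4 and 27.1 FPKM in Control and 26.6, 27.1 and 29.0 with K-3. The groups overlapped, and the coefficient of variation among Control libraries, 1.56%, was the smallest of the 10 genes. Its log2 fold change was 0.03 (SE 0.04, 95% interval -0.07 to 0.14, limma adjusted p = 0.687). NOTCH2NLA, one of the human partial copies of NOTCH2, averaged 0.467 ± 0.053 FPKM in Control, 0.374 ± 0.084 with K-3, and NOTCH2P1 had 0 fragments; fragments may be split among such copies, so the NOTCH2 level is uncertain to that extent.

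NOTCH3 (ENSG00000074181, chromosome 19 from 15159038 to 15200981, - strand) had 47.8, 43.3 and 45.8 FPKM in Control and 39.7, 41.5 and 44.8 with K-3. K-3 replicate 3 lay within the Control range and the other K-3 libraries below it. The log2 fold change was -0.12 (SE 0.06, 95% interval -0.26 to 0.02, limma adjusted p = 0.295). NOTCH3 is known from vessel walls and mesenchyme; of the 8 mesenchyme markers, PDGFRA (19.1 ± 0.68 FPKM in Control, 20.4 ± 0.95 with K-3) and COL1A1 (4.65 ± 0.79 and 5.22 ± 0.41) were above 1 FPKM, while PDGFRB was at 0.305 ± 0.0084 and 0.367 ± 0.027 and COL3A1 at 0.0286 ± 0.0082 and 0.0127 ± 0.0054.

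The make-up of the receptor pool can be set out per library. NOTCH3 made up 59.6%, 58.3% and 58.3% of the summed receptor FPKM in Control and 56.6%, 57.0% and 57.7% with K-3. NOTCH2 made up 33.9%, 35.6% and 34.5% in Control and 37.9%, 37.2% and 37.3% with K-3. The remainder, NOTCH1, was 6.53%, 6.12% and 7.26% in Control and 5.48%, 5.87% and 5.0% with K-3. In these 3 shares the groups did not overlap, while the summed level itself did (74.2 to 80.2 FPKM in Control, 70.2 to 77.7 with K-3). These shares add up to the whole, so they are not separate observations, and no test was made on them.

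**Figure D3:**
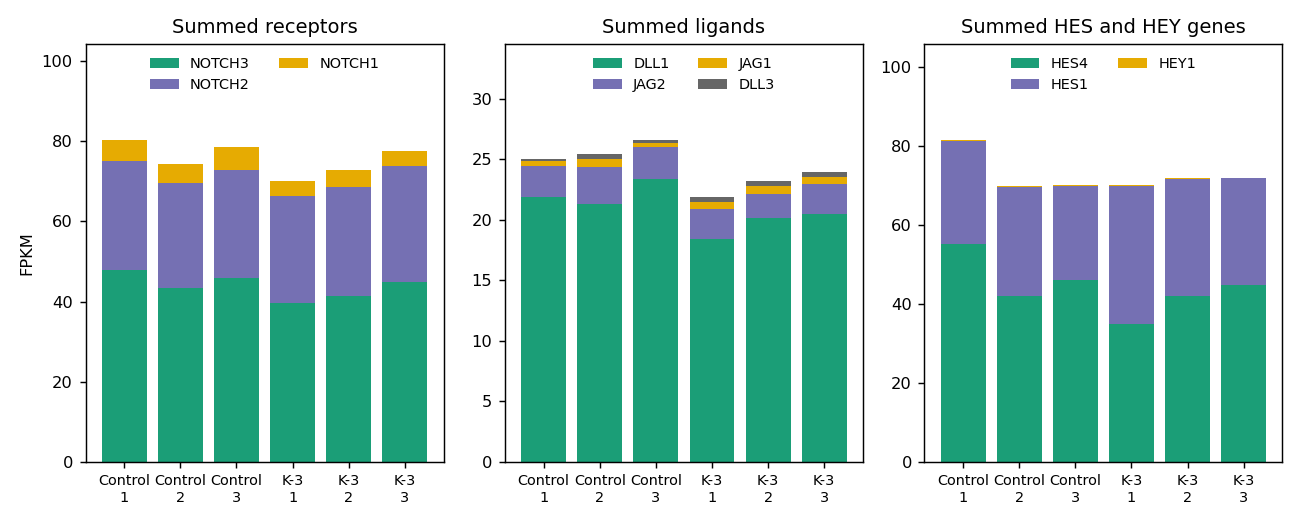
Stacked bars of FPKM (vertical axes from 0) in each of the 6 libraries for the 3 receptors, the 4 ligands and the HES and HEY genes. The ligand bars are lower in every K-3 library (21.9 to 23.9 FPKM) than in every Control library (25.0 to 26.6), and the receptor bars overlap.

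DLL1 was the main ligand and was lower in each K-3 library. DLL1 (ENSG00000198719, chromosome 6 from 170282206 to 170306565, - strand) encodes a Delta ligand that in the mouse acts in early pancreatic progenitors. It had 21.9, 21.3 and 23.4 FPKM in Control and 18.4, 20.1 and 20.5 with K-3. The groups were separate by a small gap, from 20.5 to 21.3. Its log2 fold change was -0.16 (SE 0.06, 95% interval -0.30 to -0.03, limma adjusted p = 0.153). DLL1 passed in none of the 17 alternatives, where the values ran from -0.19 to -0.12 and the adjusted p from 0.0567 to 0.417. DLL1 held 83.9% to 88.2% of summed ligand FPKM in Control and 84.2% to 86.6% with K-3.

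JAG2 (ENSG00000184916, chromosome 14 from 105140981 to 105168824, - strand), a Jagged ligand, came next, with a mean share of summed ligand FPKM of 10.7% in Control and 10.1% with K-3. Its values were 2.51, 3.09 and 2.6 FPKM in Control and 2.45, 2.06 and 2.43 with K-3. The groups were separate, but only by the distance from 2.45 to 2.51, and Control replicate 2 stood above the rest. The log2 fold change was -0.17 (SE 0.08, 95% interval -0.36 to 0.02, limma adjusted p = 0.267), and it was -0.10 without Control replicate 2. JAG2 shares 7.33% of its exon bases with AL512356.1 on the same strand, which had 5 fragments in all libraries together.

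JAG1 and DLL3 were low and lay below the minimum for testing. JAG1 (ENSG00000101384, chromosome 20 from 10637684 to 10673999, - strand), a ligand known from the bile ducts and pancreas, had 0.414, 0.623 and 0.35 FPKM in Control and 0.602, 0.648 and 0.556 with K-3. Control replicate 2 lay inside the K-3 range and the other Control libraries below it. The difference was 0.14 on the log2(FPKM + 1) scale, from 117 to 284 fragments per library, and leaving out Control replicate 3 gave 0.08, leaving out Control replicate 2 gave 0.21. DLL1 was 30.6 to 67.0 times as high as JAG1 in the 6 libraries.

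DLL3 (ENSG00000090932, chromosome 19 from 39498895 to 39508481, + strand), a Delta relative known to act inside the cell and to inhibit Notch signalling, had 0.19, 0.384 and 0.202 FPKM in Control and 0.406, 0.406 and 0.444 with K-3. Each K-3 library was above each Control library, by the distance from 0.384 to 0.406, where 5.35% of genes with a mean of 0.1 to 1 FPKM had separate groups in that direction. These values rest on 19, 39 and 19 fragments in Control and 54, 46 and 49 with K-3. The mean ratio was 1.62 and the difference 0.18 on the log2(FPKM + 1) scale, which understates changes of low genes. With no filter on low values, limma gave an unadjusted p of 0.0611 and an adjusted p of 0.447.

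The target genes HES1 and HES4, which share the promoter motif shown above, had fold changes of opposite sign, and neither passed. HES1 (ENSG00000114315, chromosome 3 from 194136145 to 194138732, + strand) had 26.2, 27.7 and 23.9 FPKM in Control and 34.9, 29.8 and 27.1 with K-3. K-3 replicate 1 stood highest, and K-3 replicate 3 lay below Control replicate 2, so the groups overlapped. The log2 fold change was 0.23 (SE 0.09, 95% interval 0.004 to 0.45, limma adjusted p = 0.222). Leaving out K-3 replicate 1 gave 0.13 and leaving out K-3 replicate 3 gave 0.31, and in none of the 17 alternatives did HES1 pass (adjusted p from 0.0751 to 0.528).

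HES4 (ENSG00000188290, chromosome 1 from 998962 to 1000172, - strand), a HES gene that mice lack, had 55.1, 42.0 and 46.0 FPKM in Control and 35.0, 41.9 and 44.7 with K-3. Control replicate 1 stood highest and K-3 replicate 1 lowest, and the other 4 libraries lay between 41.9 and 46.0. The log2 fold change was -0.23 (SE 0.12, 95% interval -0.51 to 0.05, limma adjusted p = 0.305). Leaving out Control replicate 1 gave -0.12, and leaving out K-3 replicate 1 gave -0.13.

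The ratio of HES1 to HES4 was 0.476, 0.661 and 0.519 in Control and 0.999, 0.712 and 0.607 with K-3. K-3 replicate 1, with nearly equal levels of both, stood apart from the other libraries, and the groups overlapped. The summed level of the 3 target genes was 69.8 to 81.4 FPKM in Control and 70.0 to 72.0 with K-3.

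**Figure D4:**
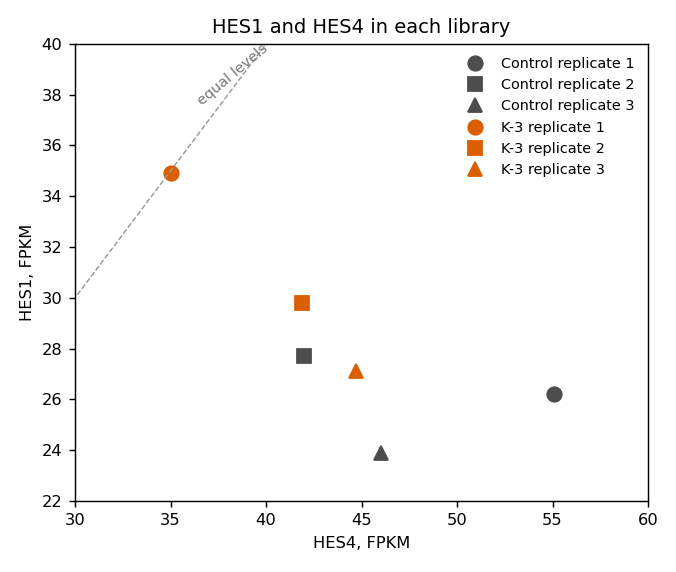
HES1 (vertical axis) against HES4 (horizontal axis), both in FPKM on axes that do not start at 0, in the 6 libraries; the dashed line marks equal levels. K-3 replicate 1 lies on the line at 35.0 and 34.9 FPKM, and Control replicate 1 has the most HES4. The other 4 libraries lie close together in HES4 (41.9 to 46.0 FPKM) and at 23.9 to 29.8 FPKM in HES1.

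HEY1 (ENSG00000164683, chromosome 8 from 79764010 to 79767863, - strand), the third target, was barely present. Its values were 0.0891, 0.0717 and 0.215 FPKM in Control and 0.0914, 0.0857 and 0.117 with K-3, from 9 to 25 fragments per library. Control replicate 3 stood above all others and the groups overlapped. The difference was -0.03 on the log2(FPKM + 1) scale and 0.02 without Control replicate 3, and with no filter on low values the limma 95% interval was -0.16 to 0.1 (unadjusted p = 0.556).

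Of the other receptors, ligands and HES and HEY genes, few reached the levels of those above. NOTCH4 averaged 0.156 ± 0.024 FPKM in Control, 0.142 ± 0.01 with K-3, and DLL4, the ligand of endothelial tip cells, had 0.178 ± 0.062 and 0.201 ± 0.067. HES5, a target in neural progenitors, had 0 fragments in all 6 libraries, which at 3 fragments per library allows up to 0.0452 to 0.0639 FPKM, counting error only. HES7, an oscillating gene of the segmenting mesoderm, had 58 fragments in all, and HEYL had 0.666 ± 0.11 and 0.625 ± 0.096 FPKM. DLK1, a Delta-like protein that lacks the domain of the canonical ligands, was higher than any gene of the 10, at 60.2, 48.4 and 58.2 FPKM in Control and 50.7, 51.9 and 58.0 with K-3. Its groups overlapped, with a log2 fold change of -0.05 (95% interval -0.26 to 0.16, limma adjusted p = 0.777).

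HEY2 and NRARP, a further target and a small protein that Notch induces and that dampens the pathway, were both above their Control range in every K-3 library. HEY2 had 2.81, 3.19 and 3.19 FPKM in Control and 4.19, 3.85 and 3.51 with K-3 (log2 fold change 0.25, SE 0.07, limma adjusted p = 0.101). NRARP had 11.0, 10.2 and 8.19 FPKM in Control and 11.6, 11.2 and 12.1 with K-3 (0.23, SE 0.09, adjusted p = 0.209). Neither passed, and 15.4% of all tested genes had separate groups in that direction. HES6, which in the mouse counteracts Hes1, had 5.91 ± 0.63 and 6.3 ± 0.51 FPKM (0.08, adjusted p = 0.587), and its groups overlapped. TGGGAA lay upstream of HEY2 once (on the opposite strand, at -213) and upstream of NRARP and HES6 not at all. There were also 2 matches upstream of HES5 (at -224, on the opposite strand, and at -80), which had no fragments. HEYL had 2 as well (at -178, on the opposite strand, and at -99). All these positions count from RefSeq starts. For HEY2, HES6 and HEYL the searched window lies inside the gene as GENCODE places it. The bases before those GENCODE starts were not searched. In HES1 both matches were on the gene's strand and closer together.

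The rest of the machinery was described by lists of genes by role, 64 genes in 8 lists, of which 50 were tested. With limma 0 of the 50 were called higher and 0 lower; 10 (20.0%) had an unadjusted p under 0.05, where 22.1% of all tested genes did, and the groups did not overlap in 13 (26.0%), where 27.4% of all tested genes were separate. Their median log2 fold change was 0.02. Voom called 1 of them, MAML2, as higher, where 3.18% of all genes were.

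In the receptor cleavage list all 8 genes were tested, and their log2 fold changes lay between -0.07 and 0.06. ADAM10, the protease that makes the first cut, had 16.6 ± 0.12 and 17.3 ± 0.53 FPKM (log2 fold change 0.06, limma adjusted p = 0.422). APH1A, a subunit of gamma-secretase, had 38.9 ± 2.8 and 40.6 ± 1.5 (0.06, adjusted p = 0.562) and shares 14.1% of its exon bases with C1orf54 on the other strand, which leaves its value uncertain. RBPJ, the DNA-binding partner of all Notch receptors, stood at 10.4 ± 0.19 and 10.5 ± 0.61 FPKM (0.01, 95% interval -0.11 to 0.12, adjusted p = 0.943).

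Its coactivators of the Mastermind family include MAML2, which shares 7.72% of its exon bases with AP000779.1 on the opposite strand and is uncertain to that extent. MAML2 had 3.34, 4.29 and 3.32 FPKM in Control and 4.88, 5.06 and 4.69 with K-3. All K-3 libraries were above all Control libraries, and Control replicate 2 was the nearest. The log2 fold change was 0.34 (SE 0.08, 95% interval 0.15 to 0.54, limma adjusted p = 0.0801), so it did not pass. It passed with voom (adjusted p = 0.0222), with protein-coding genes only (0.0343), with array quality weights (0.019) and without Control replicate 2 (0.0143), where 3.18%, 3.6%, 8.41% and 2.13% of all genes were called higher. MAML1 had 22.1 ± 0.51 and 23.3 ± 1.3 FPKM (0.07, adjusted p = 0.434).

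**Figure D5:**
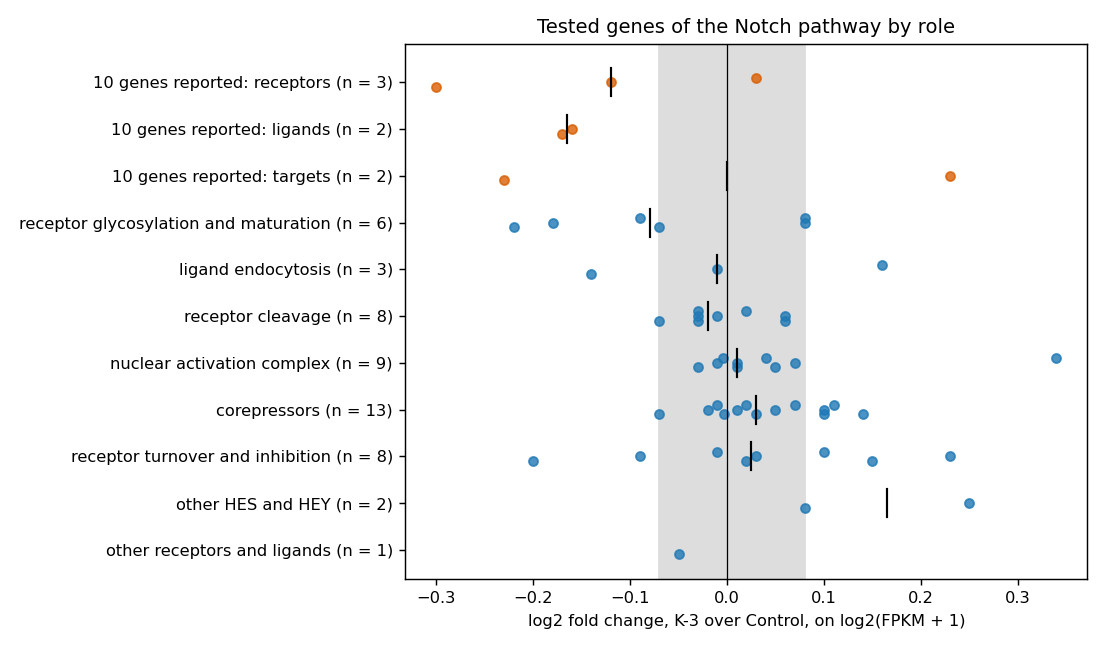
Log2 fold change of K-3 over Control on the log2(FPKM + 1) scale for the tested genes of the pathway by role (rows); points are genes, short vertical lines are medians and the grey band runs between the quartiles of all tested genes. The 8 receptor cleavage genes lie between -0.07 and 0.06, and MAML2 lies at 0.34 in the nuclear activation complex.

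In the list of genes that glycosylate and mature the receptor, 4 of 6 tested genes had negative values and none passed. LFNG is a sugar transferase of the Fringe family that favours Delta over Jagged ligands. It had 1.63, 1.15 and 1.64 FPKM in Control and 1.08, 0.919 and 1.37 with K-3. The groups overlapped (log2 fold change -0.22, limma adjusted p = 0.315), and the K-3 to Control ratio of the means was 0.761. RFNG, of the same family, had 11.1 ± 0.63 and 9.68 ± 0.58 FPKM (-0.18, adjusted p = 0.142), and its groups were separate, but 21.6% of its exon bases are shared with GPS1 on the other strand, which leaves its value uncertain. ATP2A2, the calcium pump of the endoplasmic reticulum, had 26.1 ± 0.39 and 24.4 ± 0.29 (-0.09, adjusted p = 0.191).

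Ubiquitin ligases and inhibitors of the pathway were mixed. MIB2, which drives ligand endocytosis, had 8.15, 8.08 and 8.18 FPKM in Control and 7.0, 7.15 and 7.68 with K-3, with separate groups (log2 fold change -0.14, limma adjusted p = 0.125), and NEURL1B, another such ligase, had 1.52 ± 0.29 and 1.8 ± 0.14 (0.16, adjusted p = 0.378). NUMBL, a relative of the Notch inhibitor NUMB, had 3.88 ± 0.35 and 3.23 ± 0.1 FPKM (-0.20, adjusted p = 0.129). DTX2, of the Deltex family of Notch regulators, had 3.36 ± 0.12 and 3.83 ± 0.29 (0.15, adjusted p = 0.202).

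Among 13 corepressors, all tested, 9 had positive values and the median was 0.03. HDAC1, a histone deacetylase, had 32.9 ± 1.2 and 35.4 ± 0.72 FPKM (log2 fold change 0.10, limma adjusted p = 0.217). TLE3, of the Groucho family that HES proteins recruit, had 13.4 ± 0.45 and 14.5 ± 0.58 (0.11, adjusted p = 0.22).

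The genes whose log2(FPKM + 1) followed HES1 most closely over the 6 libraries, among 11171 protein-coding genes, were TAF8 (Pearson's r = 0.997), TMEM126B (0.994), WASF1 (0.992), TMEM182 (0.986) and NEXN (0.985). For DLL1 they were ZZEF1 (0.993), EML2 (0.986), SEC24D (0.984), AL032819.3 (0.983) and STK40 (0.982). These are descriptions over 6 points that share libraries and scaling. With so many genes compared, high values are common, and the gene in place 100 still had 0.931 for HES1 and 0.936 for DLL1.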

How the data were processed

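The authors deposited FPKM values per gene for 6 libraries; per the labels' protocols, poly-A RNA was sequenced, and the protocol describes both strand-keeping and other libraries without naming the one used. Per the submitters' processing notes, the build was GRCh38 and the tools were DESeq2 1.20.0, featureCounts 1.5.0-p3 and HISAT2 2.0.5; order and settings were not given. Gene IDs and positions equal those of GENCODE release 29 for all 58217 genes used; Y chromosome genes were not used. FPKM times gene length gave whole fragments (100% within 1e-06), and the implied library sizes lay within 0.34% of median-of-ratios scaling.

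FPKM are not counts, so limma 3.58.1 (trend, R 4.3.3) was run on log2(FPKM + 1) for genes averaging 1 FPKM or more, K-3 against Control, with adjustment over all 12968. An exact test of 3 against 3 libraries cannot go below 0.1. The 10 genes and the lists (145 entries, 141 matched) were chosen with earlier results of these data known. Besides the 10 genes, the text names NOTCH4, DLL4, HES5, HES6, HES7, HEY2, HEYL, NRARP, LFNG and RBPJ whatever their result, and the 2 genes with the smallest p of each pathway list, none of which held a called gene. Libraries were fitted as unpaired, and deviations of same-numbered libraries did not correlate positively. Alternatives were other pseudocounts and filters, left-out libraries, a replicate block, rescaling, protein-coding genes only, voom, thinning and array weights.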

Additional observations from a re-analysis of the deposited data

How the results depend on the processing

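Tested genes among the 10 kept their direction in every alternative, except NOTCH2, whose value ran from -0.001 (without K-3 replicate 3) to 0.06 when single libraries were left out. The call changed for NOTCH1 alone, so 1 of the 10 genes was lower, and not 0, with voom, with protein-coding genes only, with array quality weights and, of the fits without 1 library (0 to 1), without Control replicate 2. Of the other pathway genes, voom and protein-coding genes only gave 1 higher and array quality weights 2 higher (MAML2, HEY2) and 2 lower (MIB2, RFNG), and fits without 1 library gave 0 to 1 higher. Counts over all genes, 152 higher and 118 lower, were 0 and 0 with no filter, 402 and 285 with protein-coding genes only, 412 and 398 with voom, and 1091 and 963 with array quality weights; a minimum mean of 5 FPKM gave 237 higher. Without 1 library they ran from 0 to 275 higher and from 0 to 440 lower: 259 and 440 without Control replicate 1, 275 and 229 without Control replicate 2, and at most 1 and 10 without any of the other 4. The cause was not tested, beyond fewer libraries or other genes tested. With the replicate block 0 genes were higher and 0 lower. Deviations of same-numbered libraries from their group means correlated at -0.36, -0.03 and -0.11, and Control replicate 1 correlated best with K-3 replicate 3. The values thus gave no sign of pairing by number, but such correlations cannot exclude that libraries shared a batch. JAG1, DLL3 and HEY1, at 9 to 284 fragments per library, depend on the pseudocount: at 0.1 their log2 differences were 0.35, 0.57 and -0.13. Without 1 library HEY1 ran from -0.07 to 0.02.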

Other observations

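BHLHE41, a basic helix-loop-helix repressor related to the HES genes, was named after its values were seen. It lay below the minimum mean, with 0.677, 0.6 and 0.528 FPKM in Control and 0.339, 0.322 and 0.343 with K-3, from 55 to 102 fragments per library. The groups were well separate, and 11.4% of genes with a mean of 0.1 to 1 FPKM had separate groups in that direction. With no filter on low values its log2 difference was -0.26 (SE 0.07), with an unadjusted limma p of 0.0089 and an adjusted p of 0.256. BHLHE41 shares 4.1% of its exon bases with SSPN on the opposite strand.

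DTX1, a Deltex gene and known Notch target, was named in the same way and lay on the other side, with 0.203, 0.223 and 0.184 FPKM in Control and 0.31, 0.258 and 0.281 with K-3, from 29 to 69 fragments per library (unadjusted limma p of 0.0712 with no filter). In that range of levels 5.35% of genes had separate groups with K-3 higher.

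ISL1, an endocrine and mesenchymal factor also named after its values were seen, had 2.5, 2.62 and 2.24 FPKM in Control and 4.29, 3.25 and 3.21 with K-3. K-3 replicate 1, the library with the most HES1, was also the one with the most ISL1. This match is not particular to HES1 and ISL1. The same library, the deepest of all, was also highest in PDX1, SOX9 and CDX2, and it was lowest in HES4. ISL1 did not pass (log2 fold change 0.40, limma adjusted p = 0.0802). NEUROG3, which Hes1 represses in the mouse, had 5 fragments in all 6 libraries together, too few for a comparison.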
